A study of Mus musculus with 6 samples.

Results

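The genes described here carry iron into red cell precursors, pass it to the mitochondria, export it, store it and sense it. They were chosen by name, with earlier results of these data known. The names were Tfrc, Steap3 and Slc11a2 for uptake, Slc25a37 and Slc25a38 for mitochondrial carriers, Slc40a1 for export, Fth1 and Ftl1 for storage, and Aco1 and Ireb2 for sensing. All 10 had a row among the 19436 genes of the deposited table, and all 10 passed the filter on low values. RNA came from C57BL/6 mouse fetal liver at embryonic day 14.5, from cells sorted for medium CD71 and no Ter119. Wild type was compared with -77-/-, the homozygous loss of an enhancer upstream of Gata2, with 3 libraries of each genotype and no other allele or treatment named in the labels. The labels do not say whether each library came from its own embryo, so p-values measure the spread between these libraries. CD71 is the product of Tfrc, so the sort itself used the protein of a gene described here.

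Red cell precursors take up more iron than most other cells because they build haemoglobin. Iron bound to transferrin enters through the transferrin receptor, is reduced in the endosome, leaves it through a divalent metal transporter and enters the mitochondrion, where haem is made. Iron-regulatory proteins bind a hairpin, the iron-responsive element, in some of these mRNAs when iron is scarce: binding near the start of an mRNA blocks its translation, and binding in the 3' untranslated region (UTR) protects the mRNA from decay.

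Libraries held between 16516338 and 20468899 reads, recovered from the deposited values as described under the processing. Gata2 had at least 27 reads in every library and did not pass the test (log2 fold change -1.10, standard error 0.60 and, by limma, adjusted p = 0.183). The 12 erythroid markers, which included Gata1 and Tal1 as well as globin and membrane genes, were all lower in -77-/-. Their summed value ran from 25703 to 28696 in wild type and from 1040 to 3323 in -77-/-. The 10 monocyte markers were all higher, with sums of 2088 to 3684 and 34764 to 47894. Of 10 iron-recycling macrophage markers with a row, 3 of 8 tested were higher, 5 did not pass, and the sums were 161 to 248 and 1411 to 2006. Most of the -77-/- sum came from Axl, at 30.2 in wild type and 985 in -77-/- on average, and Emr1, at 33.6 and 460, both named after their values were seen. The other higher one was Spic, at 14.2 and 77.7, also named after its values were seen. Vcam1 stood at 50.7 and 17.2 and did not pass. C1qc was at 0 in every wild type library and at 0, 4.86 and 4.27 in -77-/- replicates 1 to 3. None of 5 tested hepatocyte markers passed, and their list summed to at most 942. Of 8 granulocyte markers 2 were higher and 4 lower, with sums of 13631 to 23466 in wild type and 41737 to 45733 in -77-/-. Most of both sums came from Mpo, at 11805 in wild type and 38959 in -77-/- on average. The 4 lower ones were Camp, S100a8, S100a9 and Ngp, and these names too were picked after their values were seen. Of 7 megakaryocyte markers 1 was higher and 2 lower, with sums of 540 to 892 and 350 to 741. The part of these marker shifts in the results was not tested. In sorted bulk RNA, fewer cells of a type and less RNA per cell cannot be told apart.

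The hairpins that tie these genes to iron sensing are shown because their kind and place differ among the 10 genes. A search of the GENCODE transcripts (build GRCm38) for an unpaired C, 5 paired bases, the loop CAGTGN and the 5 bases that pair with them (G-T pairs allowed) found 7 elements in 4 of the 10 genes. Of 21901 protein-coding genes, 0.0868% had such a match in the 5' UTR and 0.475% in the 3' UTR of their reference transcript. The loop is in capitals, in DNA letters, and each line runs 5′ to 3′ on the mRNA strand.
Fth1 5' UTR, chr19:9982732-9982760, plus strand: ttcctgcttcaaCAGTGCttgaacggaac
Ftl1 5' UTR, chr7:45459779-45459807, minus strand: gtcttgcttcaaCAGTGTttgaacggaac
Slc40a1 5' UTR, chr1:45925465-45925493, minus strand: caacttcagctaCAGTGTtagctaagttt
Tfrc 3' UTR, chr16:32631219-32631247, plus strand: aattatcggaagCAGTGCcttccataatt
Tfrc 3' UTR, chr16:32631598-32631626, plus strand: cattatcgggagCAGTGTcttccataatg
Tfrc 3' UTR, chr16:32631663-32631691, plus strand: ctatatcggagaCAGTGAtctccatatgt
Tfrc 3' UTR, chr16:32631710-32631738, plus strand: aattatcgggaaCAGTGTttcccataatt
The ferritin elements shared 26 of 29 bases, and the Tfrc elements shared between 18 and 25 of 29 with each other. No match in Slc11a2, Steap3, either carrier, Aco1 or Ireb2 says only that these letters and pairs were not found in the transcripts searched.

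Of the 10 genes, 8 fell in -77-/-, none rose and 2 did not pass (limma on log2(value + 1), Benjamini-Hochberg adjustment over 15821 genes). Among all genes tested, 15.2% were lower and 16.9% higher, 32.2% in either direction. The fall was at least 2-fold in 6 of the 10, against 6.11% of all genes tested. In the same 8 genes every -77-/- library lay below every wild type library, as in 21.4% of genes tested. Counting Ftl1, whose -77-/- libraries lay above, the groups did not overlap in 9 of the 10, against 46.5% of genes tested in either direction. The median log2 fold change of the 10 was -1.71, against 0.10 over all genes tested, and it ran from -4.34 for the exporter Slc40a1 to 0.18 for the ferritin light chain Ftl1. The uptake, mitochondrial and export genes were 2.64 to 20.4 times as high in wild type as in -77-/-, the storage and sensing genes 0.886 to 1.80 times.

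**Figure D1:**
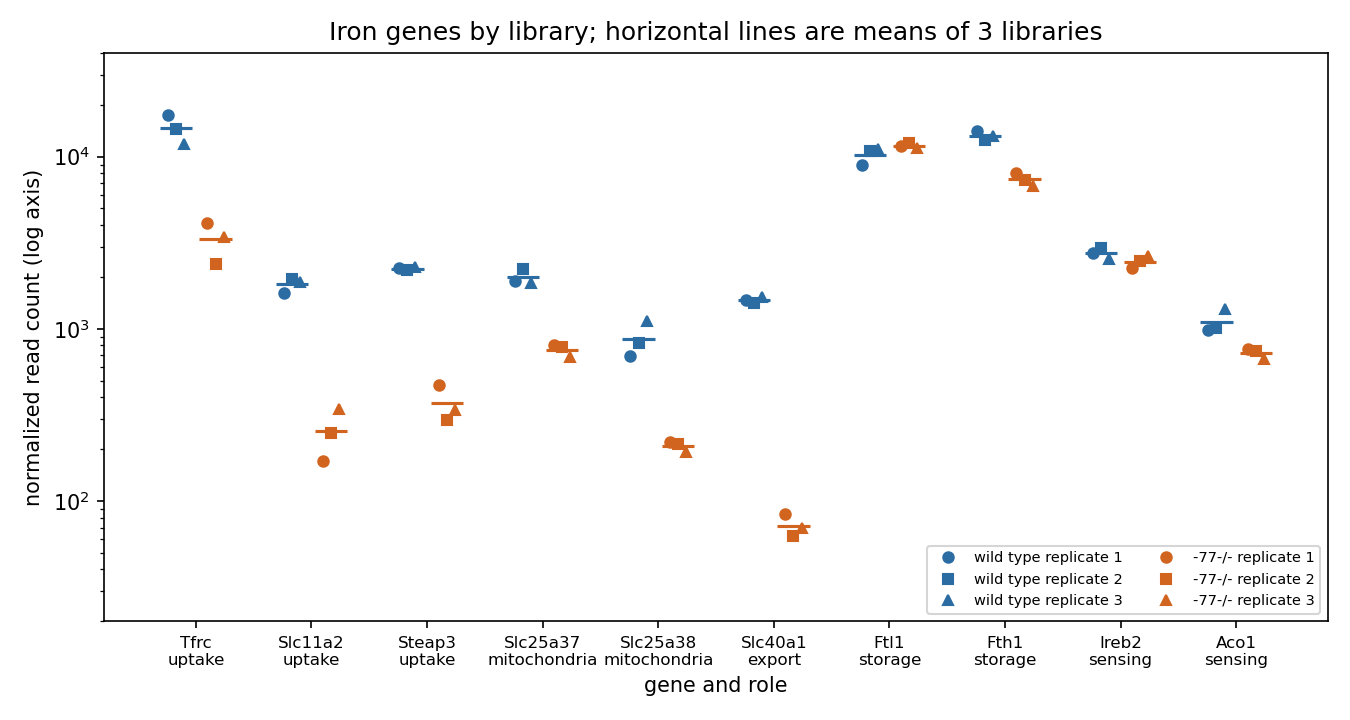
Normalized read count (log axis) of the 10 iron genes in each of the 6 libraries, grouped by role, with blue for wild type, orange for -77-/-, a symbol for each replicate and a line at the mean of 3 libraries. The uptake, mitochondrial and export genes lie far apart between genotypes, whereas Ireb2 overlaps and Ftl1 nearly does.

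Among the uptake genes, Tfrc, the transferrin receptor, was the most abundant per length. Taken in the order of replicates 1 to 3, as everywhere below, the wild type libraries held 17456, 14441 and 11831 normalized reads and the -77-/- libraries 4140, 2367 and 3413. The lowest wild type library was 2.86 times the highest -77-/- library, so the groups lay apart although each was uneven. On average Tfrc stood at 14576 ± 2815 against 3307 ± 891 (SD, n = 3 throughout), a log2 fold change of -2.16 (standard error 0.23 and, by limma, adjusted p = 3.7e-04). Both genotypes passed the same gate on CD71 protein, and the -77-/- libraries still held 22.7% of the wild type Tfrc value.

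Steap3, the reductase that turns ferric into ferrous iron in the endosome, stood at 2257, 2180 and 2271 in the wild type libraries and at 471, 297 and 339 in the -77-/- libraries. The wild type libraries differed by a coefficient of variation of 2.19%, the -77-/- libraries by 24.6%. Its log2 fold change was -2.62 (standard error 0.18 and, by limma, adjusted p = 4.0e-08).

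Slc11a2, the divalent metal transporter that lets iron out of the endosome, stood at 1608, 1951 and 1864 in wild type and at 170, 247 and 344 in -77-/-. It fell by 2.88 on the log2 scale (standard error 0.23 and, by limma, adjusted p = 2.0e-07), the steepest change of the uptake genes. Among the -77-/- libraries, replicate 1 was highest for Tfrc and Steap3 but lowest for Slc11a2, and no common order of the 3 libraries ran through the uptake genes. The table gives values per gene, so the Slc11a2 mRNAs with and without an iron-responsive element were not separated.

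Both carriers of the inner mitochondrial membrane fell. Slc25a37, the mitoferrin of red cell precursors that brings iron to the site of haem synthesis, stood at 1893, 2237 and 1852 in wild type and at 800.2, 781 and 687 in -77-/-. Its -77-/- mean was 37.9% of wild type (log2 fold change -1.40, standard error 0.14 and, by limma, adjusted p = 2.6e-06), the highest share among the 6 uptake, mitochondrial and export genes of the 10. Slc25a38, which carries the glycine needed to start haem synthesis, stood at 692, 823 and 1102 in wild type and at 221, 214 and 192 in -77-/-. Its log2 fold change was -2.03 (standard error 0.23 and, by limma, adjusted p = 6.3e-06), and here the wild type libraries were the uneven ones, with a coefficient of variation of 24.0% against 7.14%.

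Slc40a1, or ferroportin, the known exporter of cellular iron, showed the steepest fall of the 10 genes. It stood at 1459.8, 1403 and 1534 in wild type and at 84.4, 62.2 and 69.2 in -77-/-. The lowest wild type library was 16.6 times the highest -77-/- library. The means were 1466 ± 65.7 and 71.9 ± 11.3, a log2 fold change of -4.34 (standard error 0.24 and, by limma, adjusted p = 4.5e-09). Of the 15821 genes tested, 0.891% had a lower log2 fold change. Macrophages that recycle iron also express Slc40a1. The values of their markers are given above, and their part in the Slc40a1 values was not tested.

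The ferritin genes parted. Fth1, the heavy chain that oxidises iron for storage, stood at 14002, 12524 and 13211 in wild type and at 8083, 7297 and 6736 in -77-/-. It fell by 0.85 on the log2 scale (standard error 0.10 and, by limma, adjusted p = 8.8e-06), and the groups did not overlap. Ftl1, the light chain that helps the iron core form, stood at 8905, 10797 and 11047 in wild type and at 11480.4, 12052 and 11166 in -77-/-. All -77-/- libraries lay above the wild type ones, by as little as 1.01 times, and the difference did not pass (log2 fold change 0.18, 95% interval -0.03 to 0.40, limma adjusted p = 0.192). Ferritin genes have near-identical copies elsewhere in the genome. RSEM is among the tools listed, but its settings for splitting reads among such copies are not given in the sources used here. One such copy, Ftl2, varied from 421 to 936 in wild type and from 204 to 1229 in -77-/- and did not pass (log2 fold change 0.00, standard error 0.89 and, by limma, adjusted p = 0.998). Its direction turned when 1 of several libraries was left out.

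Of the sensors, Aco1 encodes iron-regulatory protein 1, which serves as cytosolic aconitase when it holds an iron-sulphur cluster. It stood at 988, 1009 and 1299 in wild type and at 763, 747 and 668 in -77-/-. The groups did not overlap, and the log2 fold change was -0.59 (standard error 0.16 and, by limma, adjusted p = 0.0123). Without -77-/- replicate 3 it was -0.53 and no longer passed (limma adjusted p = 0.0607). Over its alternatives the adjusted p ran from 0.00829, by DESeq2, to that limma value. Ireb2, iron-regulatory protein 2, which is degraded when iron is ample, stood at 2749.8, 2931 and 2545 in wild type and at 2250.1, 2468 and 2633 in -77-/-. The groups overlapped and the test was not passed (log2 fold change -0.16, 95% interval -0.41 to 0.09, limma adjusted p = 0.310). These are mRNA levels, and the protein or binding activity of either sensor was not measured.

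Of the genes with a 5' element printed above, Slc40a1 and Fth1 fell, with log2 fold changes of -4.34 and -0.85, and Ftl1, at 0.18, did not pass. Tfrc, with its 3' elements, had -2.16, between those of Slc40a1 and Fth1. Iron-regulatory proteins act on translation through 5' elements, which mRNA values do not show. The values are per gene, so any mRNAs of these genes that lack the element were not separated.

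Ratios within a library do not depend on the scaling between libraries. They were compared for 4 pairs with exact two-sided permutation tests, whose smallest possible p with 3 libraries against 3 is 0.10 before adjustment. The log2 ratio of Fth1 to Ftl1 was 0.65, 0.21 and 0.26 in wild type and -0.51, -0.72 and -0.73 in -77-/-, so Fth1 had more reads than Ftl1 in every wild type library and fewer in every -77-/- library. The difference of the mean log2 ratios was -1.03 (exact permutation p = 0.10, adjusted p = 0.133). The ratio of Tfrc to Slc40a1, uptake over export, was 12.0, 10.3 and 7.71 in wild type and 49.1, 38.0 and 49.3 in -77-/-, a log2 difference of 2.18, also without overlap (exact permutation p = 0.10, adjusted p = 0.133). Aco1 over Ireb2 was 0.359, 0.344 and 0.511 in wild type and 0.339, 0.302 and 0.254 in -77-/-, so the lowest wild type library lay just above the highest -77-/- library (log2 difference -0.43, exact permutation p = 0.10, adjusted p = 0.133). Without wild type replicate 3 that difference was -0.25. Slc25a37 over its broadly expressed relative Slc25a28 ran from 12.4 to 29.1 in wild type and from 5.15 to 14.3 in -77-/-, with overlap (log2 difference -1.40, exact permutation p = 0.20, adjusted p = 0.20). Slc25a28 was low in both genotypes, at 102 ± 40.8 and 106 ± 48.0.

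**Figure D2:**
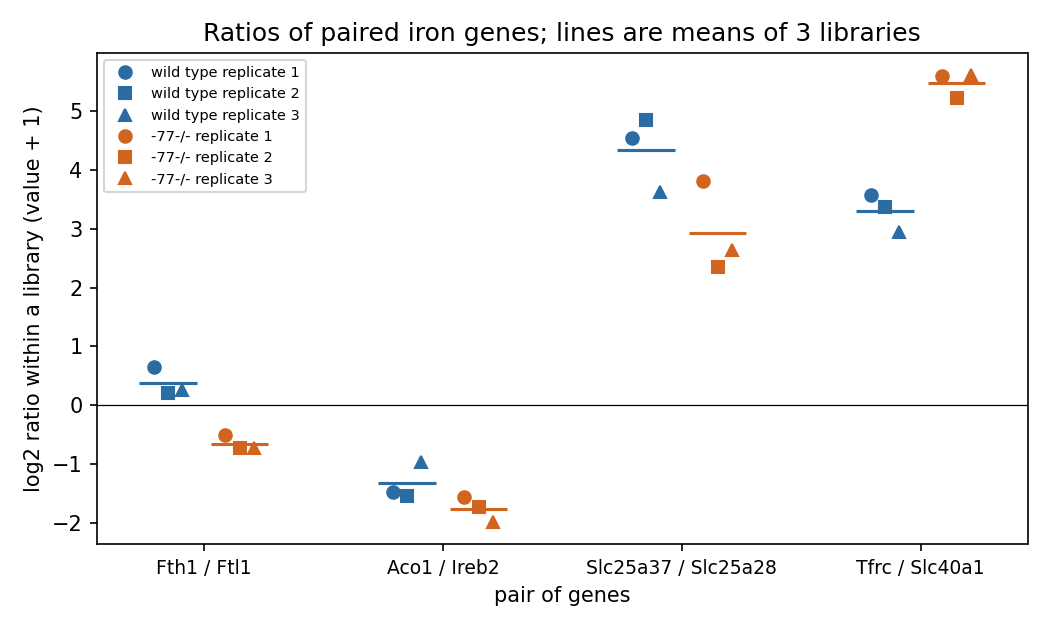
Log2 ratio of 2 genes within each library, on the value + 1 scale, for 4 pairs, with blue for wild type, orange for -77-/-, a symbol for each replicate and a line at the mean of 3 libraries. The genotypes lie apart for Fth1 over Ftl1, Aco1 over Ireb2 and Tfrc over Slc40a1, and overlap for Slc25a37 over Slc25a28.

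Set per kilobase of the transcript with the longest coding part, the order of the 10 genes changed between genotypes. In wild type it ran Ftl1, Fth1, Tfrc, Steap3, Slc11a2, Slc25a38, Slc25a37, Ireb2, Slc40a1 and Aco1. The levels were 10589 ± 1210 normalized reads per kilobase for Ftl1, 2981 ± 576 for Tfrc, 778 ± 17.1 for Steap3, 435 ± 19.5 for Slc40a1 and 287 ± 45.4 for Aco1. Library ranges of neighbours overlapped between Ftl1 and Fth1 and all along the run from Slc11a2 to Slc40a1. In -77-/- the order was Ftl1, Fth1, Tfrc, Ireb2, Aco1, Slc25a37, Steap3, Slc25a38, Slc11a2 and Slc40a1, from 11949 ± 464 for Ftl1 through 676 ± 182 for Tfrc and 425 ± 33.3 for Ireb2 to 21.3 ± 3.37 for Slc40a1. There Aco1 overlapped Slc25a37, Steap3 overlapped Slc25a38, and Slc25a38 overlapped Slc11a2. Which ferritin led in wild type depended on the Fth1 transcript: Fth1 had 8866 ± 495 per kilobase at 1494 bases and 14258 ± 796 at the 929 bases of a shorter one. In -77-/- Ftl1 led with either, since Fth1 then stood at 4935 ± 453 or 7936 ± 728.

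Other genes of the pathway were read from 7 lists, with the 10 genes above left out. Of the 58 tested, 28 were lower, 7 higher and 23 did not pass, with a median log2 fold change of -0.46. The shares over all genes tested, against which this count and those of each list are read, were 15.2% lower and 16.9% higher. Among 11 other uptake genes 4 were lower and 2 higher (median 0.94). Tfr2, a second transferrin receptor that senses iron in the liver and in red cell precursors, fell from 574 ± 18.6 to 19.3 ± 20.7 (log2 fold change -5.42, standard error 0.68 and, by limma, adjusted p = 4.5e-05). Its -77-/- libraries ran from 3.42 to 42.7, and the change was -6.27 without replicate 1 and -4.61 without replicate 3 of that genotype. Slc39a8, a zinc, manganese and iron transporter, fell from 2892 ± 580 to 397 ± 74.2, a log2 fold change of -2.86, close to that of Slc11a2. Exoc6 and Snx3, which help return the transferrin receptor to the cell surface, had log2 fold changes of -0.42 and -0.49. Hfe, a partner of the transferrin receptors, rose from 40.7 ± 17.1 to 164 ± 19.4. Trf, transferrin itself, rose from 21.4 ± 21.1 to 268 ± 119 (log2 fold change 4.13, standard error 0.86 and, by limma, adjusted p = 0.0023), and the change was 3.08 without wild type replicate 3 and 4.97 without wild type replicate 1. Hepatocytes are the main source of transferrin, and the part of such cells in the Trf values was not tested. In -77-/- replicate 3 the hepatocyte marker Alb stood at 435, against 34.6 and 63.2 in the other -77-/- libraries, while Trf was at 355, 132 and 316 in replicates 3, 1 and 2. Without that replicate the log2 fold change of Trf was 3.87.

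Among the 5 other mitochondrial genes, 3 were lower and 2 did not pass (median -0.43). Abcb10, which binds and stabilises the mitoferrin of red cells, fell from 1670 ± 140 to 410 ± 66.7 (log2 fold change -2.03). Tmem14c, which helps move a haem precursor into the mitochondrial matrix, fell from 5758 ± 787 to 2094 ± 189 (-1.45). The fall of Abcb10 was as large as that of Slc25a38 on this scale.

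Of 3 other export genes tested, 2 were lower: Flvcr1, a haem exporter, and Slc48a1, a haem transporter of endosomal and lysosomal membranes, with log2 fold changes of -0.88 and -0.77. Hamp, the hormone hepcidin that removes Slc40a1 from the membrane, was not tested, with no read in 5 libraries and 5 reads in -77-/- replicate 2. Around storage, Ncoa4, the receptor that sends ferritin to the lysosome, rose from 2092 to 3073 on average (log2 fold change 0.59, limma adjusted p = 0.0128), while Pcbp1, an iron chaperone that loads ferritin, had -0.43. Around sensing, Fbxl5, the ubiquitin ligase subunit that removes iron-regulatory protein 2 when iron is ample, rose from 805 to 1294 (log2 fold change 0.69). Eif2ak1, the haem-regulated kinase that slows globin translation, fell from 2148 to 1336 (-0.69).

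Iron-sulphur cluster genes were lower in 8 of 18 cases and higher in none, with a median of -0.58. Glrx5, a glutaredoxin that hands clusters on in the mitochondrion, fell from 3966 ± 379 to 1150 ± 139 (log2 fold change -1.79). The log2 fold changes of Lyrm4, Iba57 and Bola3 were -1.77, -1.65 and -1.52, and Nfs1, the enzyme that supplies the sulphur, fell from 1321 to 574. The scaffold Iscu did not pass, at 581 and 573. Isca1, a late-acting assembly factor, had -1.14.

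Haem synthesis and degradation genes crossed these results: 9 of 13 were lower, 3 higher and 1 did not pass (median -2.39), and the 9 lower genes were all at least 2-fold down. Cpox, an enzyme late in the pathway, stood at 19194, 19327 and 17542 in wild type and at 3129, 1367 and 1370 in -77-/-. Its fall of 3.37 on the log2 scale lay between those of Slc11a2 and Slc40a1. Alas2, the erythroid enzyme of the opening step, carried a 5' element of the same pattern and had a log2 fold change of -3.74, or -4.35 without -77-/- replicate 1. Alas1, its housekeeping relative, rose from 761 to 1174. Blvrb, a biliverdin reductase, fell by 4.75 on the log2 scale, further than Slc40a1. Hmox1, the inducible haem oxygenase, stood at 0.938, 61.9 and 4.56 in wild type and at 81.3, 165 and 179 in -77-/- (log2 fold change 3.94, limma adjusted p = 0.0134). That call ended with edgeR on the recovered reads, where the log2 fold change was 2.66 (adjusted p = 0.137), and DESeq2 also gave 2.66 (adjusted p = 0.0265). It also ended without wild type replicate 3 or -77-/- replicates 2 or 3. The log2 fold changes were then 3.61, 3.79 and 3.74 (limma adjusted p = 0.107, 0.0600 and 0.0642). Over the alternatives for Hmox1 the adjusted p ran from 0.000721, by limma without wild type replicate 2, to 0.137, by edgeR. Its log2 fold change was 5.36 without wild type replicate 2 and 2.85 without wild type replicate 1. The constitutive Hmox2 rose from 602 to 1091. Monocytes and macrophages express Hmox1. In -77-/- all 10 monocyte markers were higher, but only 3 of the 8 iron-recycling macrophage markers tested were, and 5 did not pass. The part of these cells in the Hmox1 values was not tested.

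**Figure D3:**
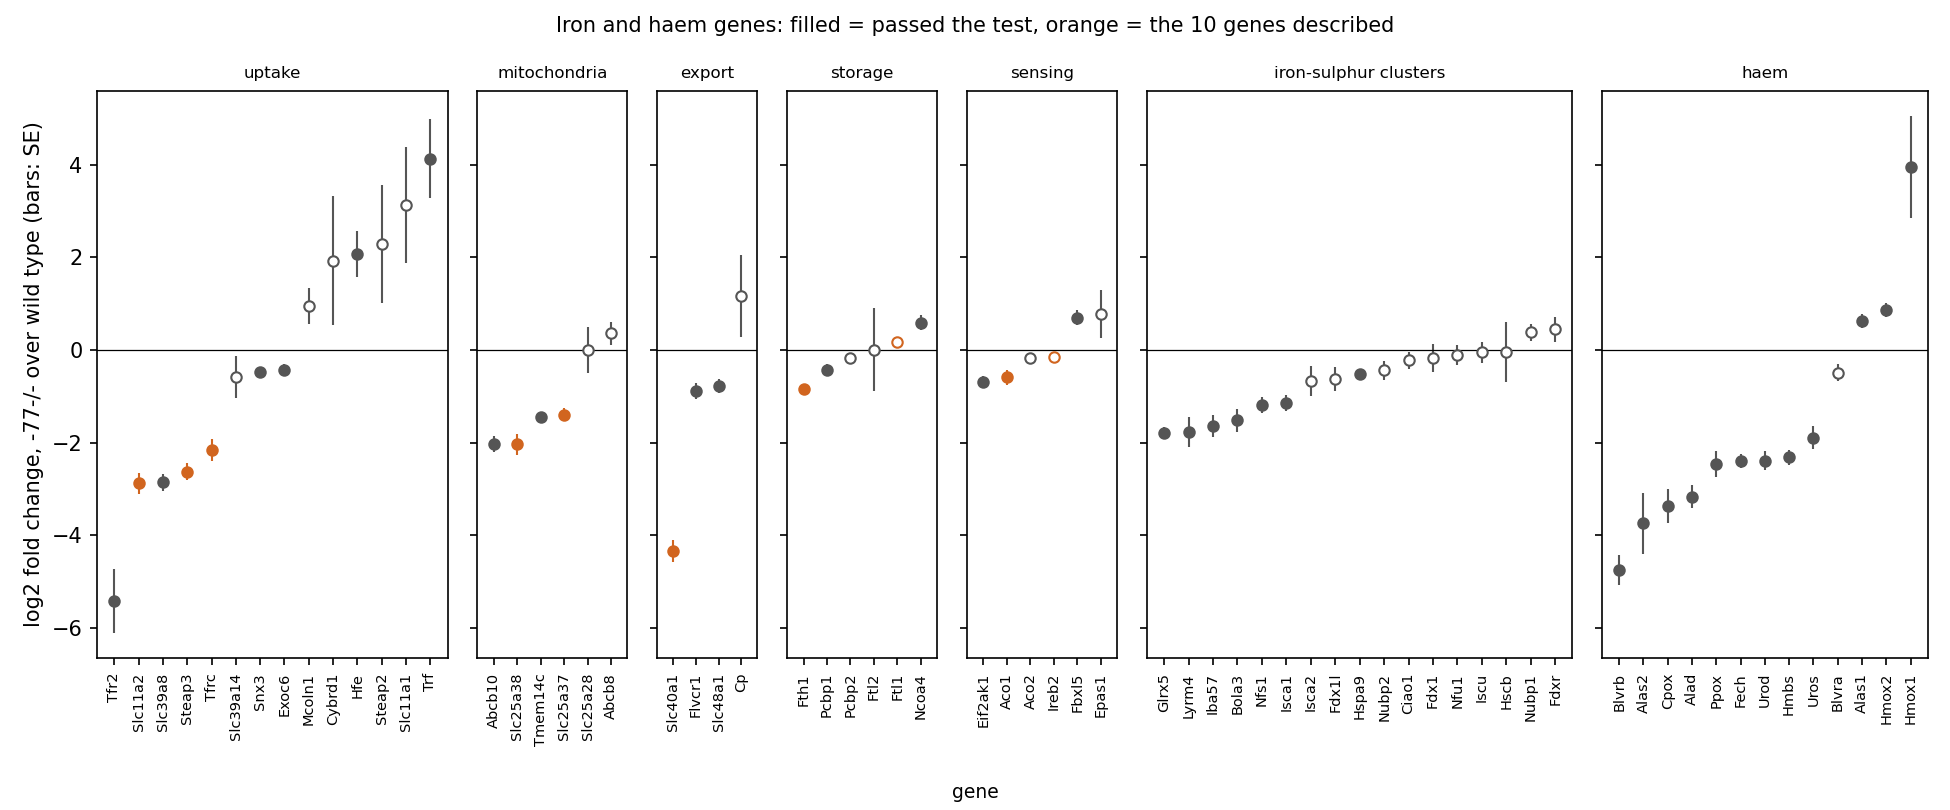
Log2 fold change, -77-/- over wild type, of the tested iron and haem genes, less those not reported by name, one panel per list and sorted within it, with bars for the SE. Filled points passed the test, open points did not, and orange marks the 10 genes of this account: most filled points lie below 0, with Trf, Hfe and Hmox1 the highest filled ones.

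The genes whose values most resembled those of Tfrc over the 6 libraries were Ssb, an RNA-binding protein, Phf10, a chromatin remodelling subunit, and Eif2b3, a translation factor subunit, with Pearson's r of 0.999, 0.999 and 0.998 on log2 values. These correlations describe 6 libraries that share a genotype difference. The log2 fold changes of Ssb, Phf10 and Eif2b3 were -0.66, -1.73 and -0.99, all smaller in size than that of Tfrc.

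Promoter sequence was at hand for 7 of the 10 genes, in 12 windows of 250 bases before an annotated start (RefSeq, GRCm38.p6). The GATA motif, searched on both strands as the letters GATA with A or T just before them and A or G just after, was present in 1 of the 12 windows, against 26.5% of 32851 windows of all genes. The KLF motif CCNCNCCC, on both strands and with overlapping matches counted, was present in 10 of the 12, against 45.9%. Tfrc, Steap3 and Fth1 have several windows each, so the 12 are not independent. The window with both motifs belongs to Steap3 and is shown for that reason, with the matches in capitals, the GATA match 45 bases and the KLF match 78 bases before the start.
Steap3, chr1:120271081-120271330, minus strand: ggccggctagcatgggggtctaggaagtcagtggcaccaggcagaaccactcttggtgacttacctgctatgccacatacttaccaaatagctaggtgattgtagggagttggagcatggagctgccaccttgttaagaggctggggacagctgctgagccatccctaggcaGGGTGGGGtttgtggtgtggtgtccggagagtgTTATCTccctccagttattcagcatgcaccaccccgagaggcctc
A match describes the letters of a window and does not show that a factor binds there.

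The authors' deposited table, made with DESeq2, gave log2 fold changes of -4.35 for Slc40a1, -2.83 for Slc11a2, -2.60 for Steap3 and -2.14 for Tfrc. In the authors' deposited table Ftl1 and Ireb2 had adjusted p-values of 0.233 and 0.379, and Aco1 had 0.00738.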

How the data were processed

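The authors deposited 1 table with a normalized signal for each gene in 6 libraries, and with their own log2 fold changes and adjusted p-values from DESeq2. The tools listed are RSEM 1.2.31, STAR 2.5, Bowtie and DESeq2, and the build is mm9, per the submitters' processing notes; the annotation, strand setting and role of each aligner are not given in the sources used here. Within each library 100% of values were whole multiples of 1 step (tolerance 0.01 of a read). The deposited signal is therefore gene counts divided by a size factor (0.878 to 1.17), and whole counts, called reads here, were recovered. Whether these had been rounded from fractional counts is not given in the sources used here. Rows displaced sideways, 8 of 19444, were left out. Depth allows 3 reads per library as a floor.

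Genes with a mean of at least 10 in the higher genotype, 15821, were tested with limma 3.58.1 (R 4.3.3, trend and robust). The test used log2(value + 1) and an adjusted p of 0.05. The added 1 shrinks changes of low genes against a smaller pseudocount. As differences of mean log2 values, the limma changes of uneven genes can still exceed those of edgeR and DESeq2. In that order, Tfr2 had -5.42, -4.92 and -4.91, and Trf had 4.13, 3.61 and 3.63. The test was tried on simulated data. Alternatives were edgeR 4.0.16 and DESeq2 1.42.0 on recovered reads, pseudocounts of 0.1 and 5, no filter or a mean of 50, TMM scaling, and leaving out each library. Replicates follow the order of the sample records. The text names all 10 genes, pathway genes that passed with at least a 2-fold change, 3 fixed relatives and the 3 genes most like Tfrc; other pathway genes were named after their values were seen. Of 134 list entries 125 matched a row. Coordinates and lengths are from GRCm38, and no mm9 coordinates were mixed in. Values per kilobase divide the deposited values, made on mm9, by these GRCm38 lengths. The genes and lists were chosen with earlier results of these data known. Some pathway genes are not reported here by name.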

Additional observations from a re-analysis of the deposited data

How the results depend on the processing

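Over 13 alternatives for each of the 10 genes, 129 of 130 values kept their direction and their side of the threshold, and the exception was Aco1 without -77-/- replicate 3. The number of the 10 genes called lower was 8 under the 7 alternatives that kept all libraries, and 7 to 8 when a library was left out; none was called higher. Of the other iron and haem genes, 27 to 29 were lower and 5 to 8 higher when a library was left out, and 28 to 29 and 6 to 7 otherwise. With edgeR on the recovered reads 4735 genes were called in all, and with DESeq2 5211, against 5091 with limma. TMM scaling left the median log2 fold change of all genes at 0.09. Among the named relatives, Slc25a28 turned to log2 fold changes of -0.13, -0.16, -0.31 and -0.08 without wild type replicate 1, wild type replicate 2, -77-/- replicate 2 and -77-/- replicate 3. Ftl2 turned to -0.33, -0.42 and -0.43 without wild type replicate 3, -77-/- replicate 1 and -77-/- replicate 3. With 1 library left out, Slc25a28 ran from -0.31 to 0.40 and Ftl2 from -0.43 to 0.86. Neither passed in any of these, and the cause was not tested. The log2 differences of the ratios kept their direction and ran from -1.11 to -0.89 for Fth1 over Ftl1, -0.53 to -0.25 for Aco1 over Ireb2, -1.84 to -1.11 for Slc25a37 over Slc25a28 and 2.01 to 2.32 for Tfrc over Slc40a1 when a library was left out. No paired analysis was possible because the labels give no replicate numbers that tie a wild type library to a -77-/- library. The lowest count of any of the 10 genes in a library was 64 reads, for Slc40a1 in -77-/-. Since the reads carry no molecular identifiers, read numbers may overstate the molecules counted, and by how much was not measured.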
